A study of Homo sapiens and synthetic construct with 52 samples.

Results

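The genes described here are 10 nuclear genes whose products copy, transcribe or translate mitochondrial DNA (mtDNA): TFAM, TFB2M, POLRMT, POLG, GFM1, TUFM, TSFM, MTIF2, MTIF3 and MRRF. They were followed through genome-wide CRISPR interference (CRISPRi) screens in K562, a chronic myeloid leukemia cell line. Members were the guide rows named for 1 of these 10 symbols, which gave 50 of the 103074 guides in the library, 5 for each gene, and 10 of its 18788 genes. The rule used names alone, though the 10 genes were chosen with earlier results of these data known.

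Mitochondria keep a small genome that codes for a few core subunits of the respiratory chain and for the RNAs needed to make them. All proteins that read this genome are made from nuclear genes and imported. POLRMT is the single-subunit RNA polymerase of mitochondria, and it starts transcription with TFAM, which also packs mtDNA, and TFB2M, which helps to open the promoter. POLG is the catalytic subunit of the mtDNA polymerase. In translation, MTIF2 and MTIF3 are initiation factors, TUFM (EF-Tu) brings charged tRNAs to the ribosome, TSFM (EF-Ts) reloads TUFM with GTP, GFM1 (EF-G1) moves the ribosome along the mRNA, and MRRF releases spent ribosomes. K562 cells grow on glycolysis as well as on respiration.

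In a CRISPRi screen, each cell carries 1 guide that brings dCas9-KRAB, a repressor fusion, to a gene's start site, and the count of a guide rises or falls with the cells that carry it. All screens used 1 pooled, sorted K562 line with lentiviral dCas9-KRAB, so it is not a clone. The guide library was cloned anew with an optimized protocol (LGR) or taken as previously distributed (legacy), with the same guides in both. Repression of the target transcripts was not measured in the files used here.

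Survival screens with the LGR library at 1000-fold coverage (cells per guide) had 1 sample at the first time point (T0) and 3 samples after 7 days of culture (Tf), and those at 100-fold coverage had 2 T0 and 4 Tf samples. In the dasatinib screens, each library was transduced once at 100-fold coverage and then divided. T0 was collected in duplicate (A and B), 2 samples received 0.01% DMSO and 2 received a single dose of 0.75 nM dasatinib, a tyrosine kinase inhibitor, for 72 h, followed by 6 days without drug. For a titration, duplicate T0 samples of each library were made at coverages of 10-, 50-, 100- and 200-fold. Replicates that come from 1 transduction are technical, so the p-values here measure the spread between these samples. Raw counts summed to 105684438 to 111002750 per sample in the 1000-fold screen, 47678549 to 54678272 in the 100-fold screen, 16051155 to 19844033 in the LGR dasatinib screen and 15739255 to 18526437 in the legacy dasatinib screen.

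The guides of a gene are numbered here from sg1 to sg5 in the order of the hg19 coordinate in their names. The 5 guides of a gene lay within 213 bp (MTIF2) to 589 bp (TFAM). POLRMT guides lay between coordinates 633062 and 633533 on chromosome 19, TUFM guides between 28857223 and 28857649 on chromosome 16, and GFM1 guides between 158362334 and 158362788 on chromosome 3. In the RefSeq annotation, a start site of another gene on the opposite strand lay within 1000 bp of the starts of TFB2M (CNST), TUFM (SH2B1) and MRRF (RBM18), and of POLRMT and POLG (each a long non-coding RNA without guides of its own). None was found within that distance of TFAM, GFM1, TSFM, MTIF2 or MTIF3. The guides aimed at CNST, SH2B1 and RBM18 themselves passed no gene-level threshold in any of the 6 comparisons described below.

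Protospacer sequences of these guides were not used here. Promoters are shown for the 3 genes that were lower by the gene score, and had a guide called, in all 4 growth comparisons below. The bases are the 250 before the RefSeq start on the gene's strand in GRCh38.p14. These coordinates are of a different build from the hg19 coordinates of the guides. Whether any guide targets the bases shown was not determined. Capitals mark matches on either strand to GCATGCGC, CCGGAAG and CCAAT. GCATGCGC is the core of the binding motif of NRF1, an activator of nuclear genes for mitochondrial proteins. CCGGAAG is the core motif of ETS-family factors, NRF2/GABP among them.
POLRMT, chr19:633538-633787, minus strand: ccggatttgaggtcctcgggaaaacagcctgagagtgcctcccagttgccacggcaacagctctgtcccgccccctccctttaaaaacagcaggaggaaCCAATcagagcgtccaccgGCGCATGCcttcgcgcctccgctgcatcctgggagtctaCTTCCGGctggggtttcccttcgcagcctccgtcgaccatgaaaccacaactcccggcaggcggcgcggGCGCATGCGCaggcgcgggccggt
TUFM, chr16:28846349-28846598, minus strand: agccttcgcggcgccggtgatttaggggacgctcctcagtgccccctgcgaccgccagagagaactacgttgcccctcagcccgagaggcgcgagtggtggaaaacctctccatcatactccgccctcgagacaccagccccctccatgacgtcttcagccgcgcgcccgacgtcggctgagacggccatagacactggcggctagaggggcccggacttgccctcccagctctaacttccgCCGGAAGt
GFM1, chr3:158644277-158644526, plus strand: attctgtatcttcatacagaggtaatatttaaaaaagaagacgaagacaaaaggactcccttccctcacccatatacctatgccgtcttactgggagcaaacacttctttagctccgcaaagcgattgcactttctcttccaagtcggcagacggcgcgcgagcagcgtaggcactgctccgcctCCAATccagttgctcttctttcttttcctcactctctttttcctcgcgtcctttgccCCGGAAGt

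The POLRMT promoter held GCATGCGC on both strands in overlapping matches from 24 to 15 bases before the start, and again at 132 bases. TUFM and GFM1 each held CCGGAAG from 8 to 2 bases before the start. Over the first listed promoter of 27305 RefSeq symbols, GCATGCGC was found in 2.81% (2 of the 10 members, POLRMT and TFB2M), CCGGAAG in 8.82% (4 members, POLRMT, TUFM, GFM1 and MTIF2) and CCAAT in 33.0% (4 members). These are matches of letters in this window, and binding was not measured.

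T0 was not the start of growth, since cells had been selected with puromycin for days after infection by then, and member guides at T0 can be set against the plasmid pools. The LGR plasmid pool used here was sequenced on HiSeq, and the legacy pool and the T0 samples on NextSeq. In the LGR plasmid pool the levels of member guides ran from 4.73 to 12.3 CPM (counts scaled to a common library total), a 2.60-fold range. Their median was 8.16 CPM against 9.52 CPM over all guides. In the legacy pool they ran from 0.874 CPM (TFAM sg1) to 28.5 CPM (GFM1 sg5), a 32.6-fold range, with a median of 10.3 CPM. The lowest member gene at T0 was 0.308 to 0.430 log2 units below its plasmid level, depending on the T0 group, and the median over the 10 genes lay between -0.026 and 0.029. In the survival screens it was TSFM, 0.308 below at 1000-fold and 0.430 below at 100-fold coverage, where TFAM was 0.42 below. POLRMT was 0.083 and 0.16 below there. A change from T0 leaves out any change before T0. In the legacy T0 TSFM was 0.28 above its plasmid level. Summed POLRMT guides were 0.36 (LGR) and 0.34 (legacy) log2 units below the plasmid in the dasatinib screens' T0. Single guides moved further, with log2 values of T0 over plasmid from -1.02 (MTIF3 sg3) to 0.37 (TFB2M sg2) in the LGR and from -0.85 (POLRMT sg2) to 0.71 (MTIF3 sg1) in the legacy dasatinib screen. POLRMT sg4 went from 7.71 CPM in the LGR plasmid to 4.57 and 4.28 CPM at that T0. Each plasmid pool is 1 library, so these levels have no replicate check.

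Single guides were compared between groups with edgeR's quasi-likelihood test and Benjamini-Hochberg adjustment over all guides, and a guide with an adjusted p below 0.05 was called. In the 1000-fold screen, 12 of the 50 member guides were lower at Tf than at T0 and 0 were higher, where 9.07% of all guides tested were lower and 1.08% higher. In the 100-fold screen, 5 were lower and 0 higher, against 5.68% and 0.0437% of all guides. After growth in DMSO, 14 LGR member guides were lower and 2 higher than at T0, against 7.42% and 0.535% of all guides. In the legacy library 15 were lower and 0 higher, against 6.88% and 0.619%. Where 0 were called higher, 1, 1 and 0 member guides in the 1000-fold, 100-fold and legacy comparisons were higher at an unadjusted p below 0.05 (18.4%, 10.7% and 16.3% of all guides had such a p in either direction, and 16.8% in LGR DMSO), and DESeq2 called 0, 1 and 0. The median log2 change of the member guides was -0.22, -0.12, -0.43 and -0.39 in these 4 comparisons, and that of all guides was between 0.01 and 0.03. Among non-targeting guides, 51 of 1890, 7 of 1889, 32 of 1890 and 39 of 1866 were called.

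The calls were gathered on a few guides. Of the 50 guides, 5 were lower in all 4 comparisons (POLRMT sg2, sg3 and sg4, GFM1 sg3 and TUFM sg4), 5 were called in 3, 3 in 2, 7 in 1 and 30 in none. Over the 101581 guides tested in all 4, 3.81% were lower in all 4, 2.46% were called in 3, 1.86% in 2, 4.76% in 1 and 87.1% in none. In DMSO against T0, 11 guides were lower in both libraries, 3 in the LGR library alone and 4 in the legacy library alone, against 5.31%, 2.14% and 1.56% of all guides. Between coverages, 5 guides were lower in both survival screens and 7 at 1000-fold alone, against 5.61% and 3.46% of all guides. At least 1 guide was called for POLRMT and TUFM (4 each), TFAM and GFM1 (3 each), POLG and MTIF3 (2 each) and MTIF2 and MRRF (1 each), and for TFB2M and TSFM no guide was called.

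POLRMT had the lowest values of the 10 genes. At 1000-fold coverage its guide sg4 had 656 counts at T0 and 116, 92 and 92 counts at Tf, a log2 change of -2.75 (SE 0.35, edgeR adjusted p = 1.13e-08). In the 100-fold screen it had 193 and 250 counts at T0 and 18, 26, 26 and 65 at Tf. In both screens every Tf count lay far below every T0 count. After growth in DMSO sg4 was almost gone: the LGR samples had 85 and 82 counts at T0 and 0 and 0 in DMSO, which makes DMSO at least 49.9-fold lower if 3 counts over both samples are taken as the most that a count of 0 allows. The legacy samples had 109 and 126 counts at T0 and 0 and 1 in DMSO, a ratio of 224 with a 95% exact interval of 39.8 to 8885 that covers counting error only. The edgeR adjusted p was 2.35e-06 in the LGR and 2.62e-08 in the legacy library.

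Guides sg2 and sg3 of POLRMT fell less far. Guide sg2 went from 1339 counts to 446, 489 and 436 at 1000-fold coverage (log2 change -1.59, SE 0.14), and from 161 and 126 to 15 and 10 in LGR DMSO (-3.35, SE 0.43). In the legacy library it went from 115 and 82 to 14 and 5 (-3.30, SE 0.54), close to the LGR value. Guide sg3 changed by -1.29, -2.07, -2.82 and -3.16 in the 1000-fold, 100-fold, LGR DMSO and legacy DMSO comparisons. The same gene held guides that moved little: sg1 changed by -0.40, -0.14, -0.44 and -0.77 and was called in none. Guide sg5 was lower only in the legacy library, with 167 and 163 counts at T0 and 38 and 27 in DMSO (-2.28, SE 0.35, edgeR adjusted p = 1.48e-05), where the LGR levels were 11.1 and 8.68 CPM at T0 and 8.43 and 6.54 CPM in DMSO (log2 change -0.41). The difference of sg5 between libraries did not pass (edgeR adjusted p = 0.092). Without either T0 replicate, sg3 and sg4 were no longer called in the 100-fold screen (log2 change -2.05 and -2.88 without T0 replicate 1, -2.09 and -2.70 without replicate 2), and sg3 was not called in LGR DMSO without T0 replicate A (-2.55).

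TFAM gave a weaker pattern, with sg2 the lowest of its guides in all 4 growth comparisons. Guide sg2 had 1016 counts at T0 and 629, 544 and 635 at Tf in the 1000-fold screen (log2 change -0.79, SE 0.14, edgeR adjusted p = 2.11e-05). It had 174 and 161 counts at T0 and 22 and 5 in LGR DMSO (-3.47, SE 0.46), and 211 and 153 at T0 and 33 and 26 in legacy DMSO (-2.56, SE 0.35). In the 100-fold screen its change was -0.71 and was not called. Guide sg3 was lower in LGR DMSO alone (-1.11) and sg4 in legacy DMSO alone (-1.44). Neither call held without either T0 replicate, with values of -1.24 and -0.97 for sg3 without LGR T0 A and B and of -1.39 and -1.50 for sg4 without legacy T0 A and B. The sg4 call was also lost without legacy DMSO replicate 1 (-0.95). Guide sg1, at 11 and 16 counts at T0 in the legacy library, had 38 and 8 counts in DMSO, so its groups overlapped.

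For TFB2M no guide passed in any growth comparison. Its 5 guides changed by -0.30 to -0.15 at 1000-fold coverage, all below 0, and the gene score described below was lower there. POLG, the polymerase subunit, had 2 guides that fell, both at the same site, 1 bp apart on opposite strands. Guide sg4 went from 875 counts to 560, 496 and 484 at 1000-fold coverage (log2 change -0.81, SE 0.16), from 7.86 and 7.18 CPM to 0.783 and 1.79 CPM in LGR DMSO (-2.54, SE 0.41) and from 165 and 187 counts to 7 and 33 in legacy DMSO (-3.07, SE 0.43). Its 100-fold counts were 351 and 258 at T0 and 297, 319, 265 and 324 at Tf, which overlapped (-0.11). Guide sg5 was lower in DMSO in both libraries (-1.75 and -0.88), and the legacy call was lost without either T0 replicate (-0.87 without A and -0.88 without B).

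TUFM was split between guides. Guides sg2, sg3 and sg4, which lay 374 to 391 bp from the first of its guides within 426 bp, fell at 1000-fold coverage and in DMSO in both libraries, and sg1 and sg5 did not. Guide sg4 had 773 counts at T0 and 237, 201 and 247 at Tf in the 1000-fold screen (log2 change -1.80, SE 0.24, edgeR adjusted p = 2.27e-08), and 371 and 371 at T0 and 74, 73, 85 and 48 at Tf in the 100-fold screen (-2.48, SE 0.46). In LGR DMSO it had 2 and 0 counts after 114 and 66 at T0, a ratio of 80.7 with a 95% exact interval of 22.0 to 671 for counting error only. In legacy DMSO it kept 17 and 11 counts after 222 and 242 at T0 (-3.98, SE 0.36).

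Guide sg2 of TUFM had 77 and 88 counts at LGR T0 and 2 and 5 in DMSO (log2 change -4.37, SE 0.66), and 191 and 168 counts at legacy T0 and 25 and 27 in DMSO (-2.72, SE 0.35). Guide sg3 changed by -0.87 at 1000-fold coverage, -1.61 in LGR DMSO and -1.98 in legacy DMSO. Guide sg1 was higher in LGR DMSO, with 128 and 92 counts at T0 and 193 and 176 in DMSO (0.90, SE 0.26, edgeR adjusted p = 0.030), a call lost without either T0 replicate (1.08 without A, 0.75 without B). It changed by 0.16, -0.04 and -0.16 in the 1000-fold, 100-fold and legacy comparisons. Other TUFM calls, in LGR DMSO and at 100-fold coverage, also depended on single samples. In LGR DMSO sg2 and sg3 were not called without T0 replicate B (-4.20 and -1.42) nor sg4 without T0 replicate A (-5.80), and at 100-fold coverage sg4 was not called without T0 replicate 1 (-2.38) or 2 (-2.57).

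For TSFM, the exchange factor of TUFM, no guide was called in any growth comparison. Its 5 guides ran from -0.29 to 0.36 at 1000-fold coverage. GFM1 had 3 guides that fell, sg1, sg2 and sg3, within 53 bp of each other at 1 end of its 454 bp, while sg4 and sg5 were called nowhere. Guide sg3 went from 1555 counts to 757, 739 and 866 at 1000-fold coverage (log2 change -1.02, SE 0.12), from 632 and 794 to 395, 314, 253 and 240 at 100-fold coverage (-1.31, SE 0.26), from 258 and 235 to 64 and 40 in LGR DMSO (-2.09, SE 0.29) and from 255 and 186 to 62 and 54 in legacy DMSO (-1.86, SE 0.29). All of its later samples were below its T0 samples. The 100-fold call was lost without T0 replicate 2 (-1.24).

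Guide sg2 of GFM1 was lower at 1000-fold coverage (log2 change -0.77), in LGR DMSO (-1.72) and in legacy DMSO, where it had 241 and 231 counts at T0 and 26 and 34 in DMSO (-2.91, SE 0.31). Guide sg1 was lower at 1000-fold coverage (-0.54) and in LGR DMSO, with 290 and 227 counts at T0 and 103 and 115 in DMSO (-1.09). In the legacy library sg1 had 251 and 214 counts at T0 and 235 and 269 in DMSO (0.18), and the difference between libraries did not pass (edgeR adjusted p = 0.080). In LGR DMSO the sg1 call was lost without T0 replicate A (-0.98) and the sg2 call without T0 replicate B (-1.66).

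The initiation factors changed less. MTIF3 guide sg3 had 820 counts at T0 and 546, 488 and 529 at Tf in the 1000-fold screen (log2 change -0.69, SE 0.16, edgeR adjusted p = 8.76e-04), and 104 and 88 at T0 and 22 and 45 in LGR DMSO (-1.37, SE 0.42). The latter call was lost without LGR T0 A (-1.32), T0 B (-1.42) or DMSO 1 (-0.97) and with DESeq2. MTIF3 sg2 was lower in legacy DMSO alone, from 185 and 234 counts to 65 and 67 (-1.61, SE 0.29). MTIF2 had a single call, sg4 in legacy DMSO, from 154 and 136 counts to 17 and 32 (-2.50, SE 0.39), and this guide changed by -0.45, -0.96 and -0.69 in the other comparisons. MRRF, the recycling factor, had no guide that fell, and its guide sg5 was higher in LGR DMSO, from 147 and 200 counts to 267 and 295 (0.83, SE 0.22, edgeR adjusted p = 0.014), a call lost without T0 replicate A (0.57).

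By strand, 11 of the 23 member guides on the plus strand and 9 of the 27 on the minus strand were called in at least 1 growth comparison, against 13.0% and 13.1% of all guides on each strand.

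Genes were scored along the lines of the study's method, with a filter on low counts and a threshold on the product of phenotype size and -log10 p that its methods do not state. The phenotype of a gene is the mean log2 change of its 3 strongest guides minus the median of non-targeting guides, without division by cell doublings. Its guides were set against non-targeting guides with an exact Mann-Whitney test, and the product was called at a false discovery rate of 0.05 estimated from groups of 5 non-targeting guides. Guides of 1 gene share a target and are not replicates of a condition. SDs are over the later samples, each set against the mean of T0. By this score, 6 of the 10 genes were lower at 1000-fold coverage (10.9% of 18687 genes), 4 at 100-fold coverage (10.4%), 6 in LGR DMSO (9.42% of 18507 genes) and 6 in legacy DMSO (8.24% of 18262 genes). None of the 10 was higher, where 0.0321%, 0.0321%, 0.0486% and 0.0493% of all genes were. The median phenotype of the 10 genes was -0.45, -0.45, -1.26 and -1.38, against -0.06, -0.08, -0.11 and -0.11 over all genes. POLRMT, TUFM, GFM1 and MTIF3 were lower in all 4 comparisons, TFAM in 3, POLG in both DMSO comparisons and TFB2M at 1000-fold coverage alone. For TUFM the exact Mann-Whitney p was 0.12 at 1000-fold coverage and 0.41 in LGR DMSO. These 2 calls rest on the size of its phenotype in the product, and its 5 guides as a set did not differ from non-targeting guides by that test. TSFM, MTIF2 and MRRF were called in none.

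At 1000-fold coverage POLRMT had a phenotype of -1.92 ± 0.0049 (SD, n = 3), rank 912 from the lowest of 18687 genes. TUFM followed with -1.36 ± 0.035 and GFM1 with -0.81 ± 0.054, and the replicates of these 3 genes did not overlap each other. All 3 Tf samples were set against the same single T0 sample, so these SDs hold neither the spread of T0 nor that between guides. TFAM (-0.50 ± 0.087), POLG (-0.46 ± 0.087), MTIF3 (-0.43 ± 0.041), MTIF2 (-0.34 ± 0.13) and TFB2M (-0.32 ± 0.053) came next, and each overlapped its neighbour in this order. TSFM (0.02 ± 0.095) and MRRF (0.05 ± 0.057) lay near 0 and also overlapped. For TSFM this was against a T0 already 0.308 log2 units below the plasmid. The TFAM call was lost without Tf replicate 3 (-0.45).

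At 100-fold coverage the order began in the same way, with POLRMT at -2.50 ± 0.30 (SD, n = 4), TUFM at -1.73 ± 0.24, GFM1 at -0.92 ± 0.37 and MTIF3 at -0.81 ± 0.33. POLRMT did not overlap TUFM, and the other neighbours overlapped. TFAM stood at 0.12 ± 0.11 here, 2 of its guides being above 0.5. Its summed guides were already 0.42 log2 units below the plasmid at this T0. The GFM1 call was lost without T0 replicate 1 (-0.99), T0 replicate 2 (-0.88) or Tf replicate 4 (-0.77). No guide and no gene sum in the whole library passed the edgeR test of the difference between the 2 coverages. In that test 1324 guides (1.29%), 1 of them a member guide, had an unadjusted p below 0.05. It had 1 T0 sample at 1000-fold coverage and fitted 1 spread per guide to both coverages. That none passed therefore does not show that the changes were equal.

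In DMSO against T0 with the LGR library, POLRMT (-4.25 ± 0.48, SD, n = 2) and TUFM (-4.13 ± 0.47) overlapped. TFAM (-1.88 ± 0.39), POLG (-1.75 ± 0.24) and GFM1 (-1.71 ± 0.30) overlapped each other below them, and MTIF3 (-0.82 ± 0.51), TSFM (-0.58 ± 0.27), MTIF2 (-0.44 ± 0.29) and TFB2M (-0.19 ± 0.084) followed. MRRF was at 0.28 ± 0.33. The TUFM and MTIF3 calls were lost without T0 replicate B (-4.11 and -0.80) and without DMSO replicate 1 (-3.80 and -0.47).

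With the legacy library POLRMT was at -4.68 ± 0.87 (SD, n = 2), rank 104 of 18262 genes, and TUFM at -3.01 ± 0.37, without overlap. POLG (-1.79 ± 0.61), GFM1 (-1.76 ± 0.13), TFAM (-1.54 ± 0.21), MTIF2 (-1.22 ± 0.51) and MTIF3 (-1.08 ± 0.27) overlapped in turn. TSFM was at -0.61 ± 0.54, TFB2M at -0.36 ± 0.10 and MRRF at 0.20 ± 0.066. The GFM1 call was lost without T0 replicate A (-1.66).

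When the counts of a gene's 5 guides were summed, TUFM differed between the libraries. Its summed change was -0.31 (SE 0.14, edgeR adjusted p = 0.20) in LGR DMSO and -1.39 (SE 0.13, edgeR adjusted p = 1.32e-08) in legacy DMSO, a difference of -1.11 (95% interval -1.51 to -0.71, edgeR adjusted p = 9.62e-04). Of the 10 genes it was the 1 whose difference passed, where 0.378% of all genes were lower and 0.351% higher in the legacy library by this test. A sum weights guides by their abundance, and sg1 and sg5 made up more of it in LGR DMSO, with 193 and 176 and with 168 and 205 counts, than in legacy DMSO, with 149 and 169 and with 57 and 121. The part of guide abundance in this difference was not tested. The direction turned with the measure: the gene score of TUFM was lower in the LGR library (-4.13 against -3.01), as were the changes of sg2 (-4.37 against -2.72) and sg4 (-6.17 against -3.98). The call was lost without LGR T0 replicate A (-0.97) or legacy T0 replicate A (-1.002). No member guide passed the test of the difference between libraries, where 0.0641% of all guides were lower and 0.0796% higher in the legacy library, and 11 member guides had an unadjusted p below 0.05 (9.6% of all guides).

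Other genes of the same processes were scored in the 1000-fold screen. Of 13 further genes for mtDNA replication and upkeep, 5 were lower, led by DNA2 (-3.88 ± 0.41, SD, n = 3), a helicase and nuclease of both nucleus and mitochondria, LONP1 (-3.83 ± 0.24), the matrix protease, and SSBP1 (-3.41 ± 0.32), which coats single-stranded mtDNA. Of 23 genes for mitochondrial RNA synthesis and processing, 14 were lower, led by PNPT1 (-3.21 ± 0.20) and SUPV3L1 (-3.06 ± 0.071), the nuclease and helicase that degrade mitochondrial RNA, and REXO2 (-2.64 ± 0.18), which degrades short RNAs. All 6 stood below POLRMT, the lowest of the 10 members. Of 21 translation aids, 4 were lower, among them OXA1L (-2.99 ± 0.17), which inserts new proteins into the inner membrane, GFM2 (-0.75 ± 0.022), which recycles ribosomes with MRRF, and PET112 (GATB, -0.63 ± 0.15), a subunit of the amidotransferase that makes Gln-tRNA.

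Of 16 scored mitochondrial tRNA synthetases, 12 were lower, led by IARS2 (-4.996 ± 0.28), TARS2 (-2.10 ± 0.11) and HARS2 (-1.55 ± 0.0045), the enzymes for isoleucine, threonine and histidine. Of 76 scored genes of the mitochondrial ribosome, 58 were lower, with a median phenotype of -0.82. Complex I, the first enzyme of the respiratory chain, had 12 of 38 scored genes lower and a median of -0.36. The ribosome and Complex I lists were drawn from gene symbols alone, and a gene that matches need not be a subunit. Olfactory receptors, which K562 cells are not known to use, had 1 of 358 lower. In DMSO against T0 the ribosome had 60 of 76 genes lower with the LGR and 61 of 76 with the legacy library, with medians of -1.95 and -2.24, below the members' medians given above. These counts are descriptions of lists and no test between lists was run.

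Dasatinib was compared with DMSO next. This comparison shares its DMSO samples with DMSO against T0, so a low DMSO count enters both. No member guide was called in either direction: of 48 guides tested with the LGR library and 49 with the legacy library edgeR called 0, where 0.00393% and 0.0349% of all guides were lower and 0.0954% and 0.572% higher. At an unadjusted p below 0.05, 6 LGR member guides were lower, and 3 legacy member guides were lower and 1 higher. Over all guides, 12% and 12.8% had such a p. DESeq2 called 0 member guides with the LGR library and 1, higher, with the legacy library. The median log2 change of the member guides was -0.0046 with the LGR and -0.15 with the legacy library, against 0.03 and 0.02 over all guides.

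By the gene score, TFAM was called lower under dasatinib with the LGR library, the 1 member called in either library, but it was not called, nor was any member, with guides of a mean of 10 or more counts. The score kept guides with a mean of 50 or more in either arm, so sg3, sg4 and sg5 entered through their DMSO counts alone and sg2 was left out. The background was 0.693% of genes lower and 1.16% higher with the LGR library, and 0.602% and 0.942% with the legacy library, where 0 of 8 scored members passed. TFAM's phenotype was -1.71 ± 0.55 (SD, n = 2) over 4 guides, rank 88 of 17895 genes. Its guide sg4 had 50 and 58 counts in DMSO and 10 and 8 under dasatinib (log2 change -2.34, edgeR adjusted p = 0.28). Guide sg5 had 146 and 101 counts and then 47 and 15 (-1.77, edgeR adjusted p = 0.32), sg1 had 89 and 147 and then 57 and 63, and sg3 had 49 and 67 and then 30 and 23. In these 4 guides no dasatinib sample reached a DMSO sample, and in sg2, with 22 and 5 counts in DMSO and 15 and 17 under dasatinib, the groups overlapped.

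Leaving out single samples changed this call. It was lost without DMSO replicate 2 (-1.61), dasatinib replicate 1 (-2.11) or dasatinib replicate 2 (-1.36), and the summed counts of TFAM gave -1.24 (SE 0.27, edgeR adjusted p = 0.10). With the legacy library TFAM had too few guides of sufficient count to be scored, and its summed counts gave -0.84 (SE 0.23, edgeR adjusted p = 0.11). There, sg3 went from 171 and 161 counts to 78 and 73 (log2 change -0.95, edgeR adjusted p = 0.36) and sg5 from 301 and 203 to 124 and 116 (-0.88, edgeR adjusted p = 0.35). In both guides the dasatinib samples were below the DMSO samples. The difference of the summed change between libraries was 0.38 (SE 0.36, edgeR adjusted p = 0.73).

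Among the members scored with both libraries, MTIF2 and TSFM alone were below 0 in both by more than 0.5 of phenotype, and neither passed. MTIF2 had phenotypes of -1.16 ± 0.15 (LGR) and -0.67 ± 0.19 (legacy, SD, n = 2 each), and TSFM of -0.86 ± 0.38 and -1.23 ± 0.72. MTIF3 was at -0.55 and 0.02, POLG at -0.09 and -0.08, TFB2M at 0.21 and -0.21, GFM1 at -0.79 and -0.35, and MRRF at -0.56 and 0.35. Here too guides passed the count filter of the score through DMSO alone with the LGR library. Among them were MTIF2 sg4 (79 and 50 counts, then 21 and 20) and GFM1 sg3 (64 and 40, then 6 and 14). MTIF2 sg5, TSFM sg2 and sg3, MTIF3 sg2, POLG sg2 and TFB2M sg1 did so too, while MTIF3 sg3 passed through dasatinib alone. Entry through DMSO favours low values, so these phenotypes do not show a fall. MRRF sg5 gave the values furthest apart, 267 and 295 counts in DMSO and 60 and 142 under dasatinib with the LGR library, and 121 and 99 and then 343 and 236 with the legacy library. The difference between libraries was 2.88 for this guide (SE 0.63, edgeR adjusted p = 0.21). For dasatinib against DMSO 0 member guides and 0 member gene sums passed the test between libraries (2 member guides, and 10.1% of all guides, had an unadjusted p below 0.05), and over the whole library 0.000977% of guides were lower and 0.00195% higher, with 0.00532% of gene sums in each direction.

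POLRMT could not be scored under dasatinib with either library, nor TUFM with the LGR library, because fewer than 3 of their guides reached a mean of 50 counts in DMSO or dasatinib. The POLRMT guides that had fallen by then held little: sg2 had 15 and 10 counts in LGR DMSO and 28 and 4 under dasatinib, and sg4 had 0 and 0 and then 2 and 0. TUFM sg4 had 2 and 0 counts in LGR DMSO and 0 and 2 under dasatinib. Differences at these counts were not detectable at this depth. With the legacy library TUFM was at 0.23 ± 0.52 (SD, n = 2) over 3 guides.

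Under dasatinib, the related lists gave the following counts. The Complex I list had 14 of 33 scored genes lower with the LGR library and 11 of 35 with the legacy library, with medians of -1.51 and -1.28. The mitochondrial ribosome had 2 of 45 and 0 of 41 lower, with medians of -0.56 and -0.55. The scored members had medians of -0.67 and -0.15, against 0.04 and -0.01 over all genes. These member medians are over different sets of 8 genes, with TFAM scored in the LGR library alone and TUFM in the legacy library alone. They hold guides that passed the count filter through DMSO alone. Genes of mitochondrial RNA synthesis and processing had 1 of 14 lower with the LGR library, GRSF1 (-1.48 ± 0.099, SD, n = 2), an RNA-binding protein of mitochondrial RNA granules, and 2 of 15 with the legacy library, GRSF1 (-1.32 ± 0.041) and LRPPRC (-1.13 ± 0.13), which stabilises mitochondrial mRNAs.

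Translation aids had 2 of 19 lower with the LGR library, MTRF1L (-2.06 ± 1.01), a release factor, and QRSL1 (-1.82 ± 0.0495), the catalytic subunit of the amidotransferase, and 0 of 20 with the legacy library. Of the tRNA synthetases 1 of 7 was lower with the LGR library, MARS2 (-1.51 ± 0.19), and 2 of 9 with the legacy library, HARS2 (-1.80 ± 0.72) and NARS2 (-1.66 ± 0.20). In mtDNA replication and upkeep 0 of 9 were lower with either library. Many genes of these lists that fell during growth could no longer be scored, so the lists here hold fewer genes than in the growth comparisons.

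How far duplicates scatter at T0, after selection with puromycin, was read from the titration. The SD of the log2 ratio between duplicate T0 samples over the member guides was 1.14 at 10-fold, 0.359 at 50-fold, 0.301 at 100-fold and 0.210 at 200-fold coverage with the LGR library, close to 1.25, 0.295, 0.270 and 0.225 over all guides. With the legacy library it was 1.67, 0.414, 0.255 and 0.225, against 2.19, 0.459, 0.362 and 0.287 over all guides. At 10-fold coverage 22 LGR and 25 legacy member guides differed by more than 2-fold between duplicates, against 33.9% and 49.7% of all guides. At 50-fold coverage and above no member guide did, where 0.19% (LGR) and 3.13% (legacy) of all guides did at 50-fold coverage. Of the member values, 4 were 0 at 10-fold coverage with the legacy library, where 6434 and 4966 of all 103074 guides were 0 in duplicates 1 and 2.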

How the data were processed

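Deposited values were raw counts of reads per guide in each of 40 libraries used here, which the authors made by matching reads to the guide list with ScreenProcessing; the submitters' processing notes name bcl2fastq and hg19, without versions. Counts were neither normalized nor pooled. The deposited LGR CRISPRi plasmid file from NextSeq numbers guides without names and was not used, nor were pilot pools and CRISPRa files. Groups came from sample titles. For both plasmid pools sequenced on HiSeq the other labels contradict the title, and the title was followed.

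A guide entered a test where any sample of the comparison held 10 or more counts of it. Tests were run with edgeR 4.0.16 (R 4.3.3; quasi-likelihood, TMM, adjusted p below 0.05), over all guides, or on counts summed by gene, and differences between comparisons by an interaction term. Totals per sample are given in the report. Gene scores (Python 3.11.15, scipy 1.17.1) used guides with a mean of 50 or more counts in either arm, with 0 set to 1. A gene with several starts took the one of lowest p, and at least 3 guides were needed. Steps were tested on simulated data. Alternatives were library totals, scaling on non-targeting guides, no filter, DESeq2 1.42.0, a replicate block, T0 with both treatments in 1 fit, each replicate left out and other score settings. Exact intervals and floors cover counting error only, and edgeR intervals cover the fitted spread between samples. Over guides that were not of low count, replicates differed beyond sampling noise (mean chi-square per guide 2.75 to 87.8). For those guides the spread between replicates, more than depth, sets the precision. Guides with few counts are limited by depth as well. Promoters are from RefSeq (GRCh38.p14; all 10 symbols matched).

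The 10 genes and the lists of mtDNA upkeep, RNA synthesis and processing, translation aids, tRNA synthetases, mitochondrial ribosome, Complex I and olfactory receptors were chosen with earlier results of these data known. Every member is named, with those of its guides that were called and others for contrast. From the lists, the text names the 3 lowest called genes of the 1000-fold screen and the 2 largest called in each dasatinib comparison, for the first 4 lists.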

Additional observations from a re-analysis of the deposited data

Results flagged for a closer look

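In the 4 Tf samples of the 100-fold screen, 4 of 60 member values had 1 sample far from the other 3, where chance flags about 1 in 20. They were the summed TUFM guides at 21.2 CPM in 1 sample against 23.7, 23.8 and 24.1 CPM, GFM1 sg1 at 11.2 CPM against 8.20, 8.52 and 8.60 CPM, POLG sg4 at 5.10 CPM against 5.83, 5.88 and 5.93 CPM, and TSFM sg3 at 3.31 CPM against 5.98, 6.05 and 6.23 CPM. The TUFM difference of -1.11 between the legacy and the LGR library in DMSO against T0, on summed counts, passed the edgeR interaction test, while the gene score was lower in the LGR library (-4.13 against -3.01), a difference that was not tested.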

How the results depend on the processing

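Of the member guides called in the 1000-fold, 100-fold, LGR DMSO and legacy DMSO comparisons (12, 5, 16 and 15), 12, 1, 6 and 13 were called in every fit that left out 1 sample, and 12, 1, 2 and 8 under every alternative run. Of the genes called by the gene score in the same order (6, 4, 6 and 6), 5, 3, 4 and 5 were called with any 1 sample left out and 4, 2, 4 and 4 under every alternative. The single call under dasatinib, TFAM with the LGR library, did not hold. The single T0 sample of the 1000-fold screen could not be left out. Calls at 1000-fold coverage were thus never set against the loss of a T0 sample, as those of the other screens were. Where a left-out sample left 1 sample in a group, that sample was assumed to vary like the other group. For the changes given here the cause was not tested.

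With 1 sample left out at a time, member guides called lower ranged from 1 to 6 at 100-fold coverage, from 9 to 17 in LGR DMSO (higher, 0 to 3), from 0 to 8 under LGR dasatinib (higher, 0 to 3) and from 0 to 4 under legacy dasatinib (higher, 0 to 2). All guides called lower ranged from 3131 to 5994 at 100-fold coverage, 3373 to 10443 in LGR DMSO, 4071 to 8746 in legacy DMSO, 4 to 9203 under LGR dasatinib and 9 to 6193 under legacy dasatinib. All guides called higher ranged from 37 to 3470 in LGR DMSO, 12 to 12167 under LGR dasatinib and 177 to 9705 under legacy dasatinib. By the gene score, members lower under LGR dasatinib were 0 to 1, all genes lower 45 to 112 and higher 91 to 195, and under legacy dasatinib all genes lower were 56 to 87 and higher 94 to 137. For the difference between libraries in DMSO against T0, 0 to 1 member guides were lower, with 0 to 214 guides lower and 0 to 251 higher in all. On summed counts 0 to 2 members were lower, with 10 to 87 genes lower and 20 to 85 higher in all. For dasatinib the difference gave 0 to 113 guides lower and 0 to 57 higher, and 0 to 142 gene sums lower and 0 to 92 higher.

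With T0, DMSO and dasatinib samples in 1 fit, 3 LGR member guides were lower and 0 higher in DMSO (1678 and 0 of all guides), and 8 legacy member guides were lower (2458 of all guides). Under dasatinib this fit called 235 LGR guides lower and 973 higher, and 461 legacy guides lower and 1899 higher, 1 of the latter a member (MRRF sg5). DESeq2 called 1 member guide higher at 100-fold coverage, 855 guides higher in LGR DMSO, 355 lower and 1743 higher under LGR dasatinib, and 369 lower and 2044 higher under legacy dasatinib, with the 1 member guide MRRF sg5. Scaling on non-targeting guides gave 284 guides higher in LGR DMSO and 60 under LGR dasatinib, and library totals gave 64 in the latter.

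With Benjamini-Hochberg adjustment the gene score called 2 members at 100-fold coverage, 1154 genes lower in LGR DMSO, and 75 lower and 121 higher under LGR dasatinib. With guides of mean count 10 or more, 0 members were lower under LGR dasatinib, and 371 (LGR) and 310 (legacy) genes were higher. Summed counts gave 3088 genes lower at 1000-fold coverage, 0 members and 37 genes lower under LGR dasatinib, and 301 genes higher under legacy dasatinib.

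Replicate numbers did not pair the samples: deviations of same-numbered samples correlated between -0.0013 and 0.0017. With the replicate number as a block, 189 guides were lower and 786 higher under LGR dasatinib, and 397 lower and 2041 higher under legacy dasatinib, 1 of them the member guide MRRF sg5. On summed counts the replicate block called 2 members at 100-fold coverage, 339 genes higher under LGR dasatinib, and 268 lower and 748 higher under legacy dasatinib, with 1 member lower, TFAM (log2 change -0.84, edgeR adjusted p = 0.048). TFAM was also lower on summed counts with the LGR library under the block (-1.25, edgeR adjusted p = 0.040) and in the fit of 3 groups (-1.24, edgeR adjusted p = 0.018, and -0.84, edgeR adjusted p = 0.026, for the legacy library).

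No called phenotype changed sign, and the uncalled ones that did were as follows. TFAM at 100-fold coverage was -0.0287 over all guides, and POLG under dasatinib was 0.4165 (LGR) and 0.2864 (legacy) with a mean count of 10 or more. On summed counts under legacy dasatinib TFB2M was at 0.0058, POLG at 0.1501 (0.1458 with the block) and TUFM at -0.0205 (-0.0531 with the block). TUFM was at -0.6503 with a mean count of 10 or more, and MTIF3 at -0.1175 without centring. With 1 sample left out, TSFM ranged from -0.0664 to 0.0663 at 1000-fold coverage, TFAM from -0.1559 to 0.2866 and MRRF from -0.1281 to 0.1467 at 100-fold coverage, and MRRF from -0.0282 to 0.3478 in legacy DMSO. POLG ranged from -0.1669 to 0.0994 under LGR dasatinib. Under legacy dasatinib TFB2M ranged from -0.7785 to 0.5255, POLG from -0.5960 to 0.3326, GFM1 from -0.7521 to 0.1180 and TUFM from -0.1432 to 0.5946. Depth limits what dasatinib can show for guides that had nearly gone in DMSO. Duplicates also differed more under dasatinib than in DMSO (mean chi-square per guide 29.4 against 6.94 with the LGR and 22.6 against 6.77 with the legacy library).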
